A study of Mus musculus with 15 samples.

Results

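MHC class II molecules and the proteins that load them with peptide were followed here through 8 genes. They were read on 15 arrays of mouse spleen with acute promyelocytic leukaemia (APL), in which neutrophil precursors stall as promyelocytes and fill marrow and spleen. The 8 genes were listed by name: the chains H2-Aa, H2-Ab1 and H2-Eb1, the loading factors H2-DMa, H2-Oa and H2-Ob, the invariant chain Cd74 and the transactivator Ciita. All probesets that carried 1 of these symbols and no other were taken, which gave 68 of 208397 such probesets and 7 of 16299 named genes. H2-Ob had no probeset under its symbol alone, so it has no level here and is described by its promoter only. A gene's level in a tumour was the median log2 intensity over its probesets, and it was compared with the level of Cd79a, which encodes a signalling chain of the B cell receptor, to see whether the class II signal followed B cells.

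All 15 arrays (Affymetrix Mouse Exon 1.0 ST) came from 1 group, Bl/6 Taconic spleen with APL, each named by a tumour number such as tumor_31. No healthy spleen was analysed here, so a level describes leukaemic spleen and shows no change from normal tissue. The labels used here give no age, promoter or transgene. Nor do they state that each tumour is a different animal, so the p-values measure only the spread over arrays, some of it perhaps technical. Their number limits the precision.

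MHC class II molecules are pairs of an alpha and a beta chain that display peptides from endocytosed protein to CD4 T cells. The invariant chain holds new pairs in shape and blocks their groove until proteases cut it away, after which H2-DM exchanges its last fragment for a peptide and H2-O restrains H2-DM, mainly in B cells. Ciita is the master coactivator of these genes: it does not bind DNA itself but joins the factors bound to the X and Y boxes of their promoters. In spleen the main producers are B cells, dendritic cells and some macrophages, while granulocyte precursors normally make little.

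The promoter letters that these genes are known to share are shown first, because the members are read below as a group. RefSeq promoter windows (GRCm38.p6, from 250 bases before to 50 bases after the annotated start) were given for 5 of the 8 members. The stretch from 120 to 16 bases before the start, upstream of the transcribed part, is printed for the 4 members with a Y box match near the start. Capitals mark CTGATTGG (a Y box core) or its inner ATTGG, and ACNGATG (X box letters), on the strand printed. The H2-Aa stretch is chr17:34287839-34287943 on the minus strand, and the others are on the plus strand at chr17:34305747-34305851 (H2-Eb1), chr17:34092259-34092363 (H2-Oa) and chr17:34238785-34238889 (H2-Ob).
H2-Aa: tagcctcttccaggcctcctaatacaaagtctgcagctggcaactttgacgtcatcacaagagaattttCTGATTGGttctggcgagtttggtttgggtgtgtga
H2-Eb1: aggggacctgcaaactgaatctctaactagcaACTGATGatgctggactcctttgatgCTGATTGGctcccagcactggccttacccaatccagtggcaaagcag
H2-Oa: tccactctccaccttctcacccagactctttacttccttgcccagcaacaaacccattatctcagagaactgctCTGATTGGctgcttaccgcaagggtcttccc
H2-Ob: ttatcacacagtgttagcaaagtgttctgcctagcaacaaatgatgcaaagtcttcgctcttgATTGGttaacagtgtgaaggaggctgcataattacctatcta

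The core CTGATTGG stood in the windows of H2-Aa, H2-Eb1 and H2-Oa, and in 4.10% of 32851 RefSeq windows of the same length, searched on both strands. ATTGG, which lies inside that core, was also found in H2-Ob and in 1 of the 2 windows of H2-DMa, against 37.4% of all windows. ACNGATG was found in H2-Eb1, H2-Oa and H2-Aa, against 9.85% of all windows. The matches in H2-Oa (at -137 from the start) and H2-Aa (at -232, on the other strand) lay upstream of the printed stretch. The pair of ACNGATG followed on the same strand by ATTGG after 10 to 30 bases stood in H2-Eb1 among the members, in 52 of all windows (0.158%). The Cd79a window held none of these letters. A match describes the letters only, and none says only that they are not in this window.

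The median deposited intensity per array lay between 108 and 129. Across detected genes the arrays correlated at r = 0.846 to 0.970, and no pair held the same values. Those of tumor_9509 and tumor_9514 differed from the rest: r was 0.949 between the pair and at most 0.900 between either and the other 13 tumours, and their medians over genes deviated from that of the median tumour by -0.13 and -0.10 log2 units. They also held the highest and the third highest Cd79a levels, so the r of the members, the median r of each gene list and the r of the list genes named for theirs are given with and without them. The promyelocyte markers included Mpo at 12.91 ± 0.27 and Ctsg at 12.20 ± 0.24 (SD, n = 15), and B cell markers such as Cd79a (8.24 ± 0.60) were detected beside them. A gene was called detected where its mean over the tumours passed 6.41 log2, a limit set at the 40th percentile over named genes, and 9779 genes passed, among them all 7 members with probesets. Probe affinity enters every level, so a higher intensity of 1 gene than of another is not read as more RNA.

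The classical chains varied strongly between tumours. H2-Aa, the alpha chain of I-A, had a mean of 8.36 ± 0.53 log2 (SD, n = 15). It was lowest in tumor_9492 at 7.40, had a median of 8.36 and was highest in tumor_31 at 9.47, with tumor_9509 next at 9.15, a range of 4.21-fold. The SD of the median detected gene was 0.29, and the SD of H2-Aa was above that of 91.7% of detected genes. tumor_31 and tumor_9509 stood above the others, and tumor_9492 stood below them, the next lowest being tumor_9508 at 7.74.

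H2-Ab1, the beta chain that pairs with H2-Aa, had a smaller spread, 8.28 ± 0.36. It ran from 7.68 in tumor_9508 through a median of 8.23 to 9.0 in tumor_31, a range of 2.50-fold, again with tumor_9509 next at 8.83. H2-Eb1, the beta chain of I-E, had a mean of 9.16 ± 0.58. Its lowest level was 8.39 in tumor_9508, its median 9.09 and its highest 10.27 in tumor_31, a range of 3.70-fold. Here tumor_9500 was next at 10.05, while tumor_9509, next to the top for both I-A chains, was at 9.25 and tumor_9514 was near the bottom at 8.48. The I-E alpha chain gene H2-Ea, which C57BL/6 mice are known not to transcribe into a working chain, is a transcribed pseudogene in the RefSeq table and was not detected in the mean (5.04 ± 0.33, from 4.42 to 5.57).

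Among the loading factors, H2-DMa, the alpha chain of the peptide exchange factor H2-DM, had the largest SD of the members, 7.21 ± 0.63. Its lowest level, 6.07 in tumor_9492, lay under the detection limit, its median was 7.41 and its highest level 8.19 in tumor_31, with tumor_9495 next at 8.07. Besides tumor_9492, tumor_9523 at 6.39 was under the limit, and tumor_9514 at 6.49 was just above it. The partner chains H2-DMb1 (10.63 ± 0.38) and H2-DMb2 (7.52 ± 0.23) each rest on 1 probeset and are close copies of each other, so how their signal divides is uncertain. H2-Oa, the alpha chain of the modulator H2-O, varied less, 7.02 ± 0.30, from 6.49 in tumor_9495 through 7.0 to 7.68 in tumor_9500. Its range was 2.29-fold, and tumor_9495, next to the top for H2-DMa, was lowest of all for H2-Oa.

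Cd74, the invariant chain, had a mean of 8.10 ± 0.41. It was lowest in tumor_9492 at 7.51, had a median of 8.07, and was highest in tumor_31 at 8.97 with tumor_9500 next at 8.66, a range of 2.75-fold. Ciita, the transactivator, lay near the detection limit and varied little at 6.58 ± 0.19, with 6.33 in tumor_9508, a median of 6.52 and 6.95 in tumor_9500. Its SD was below that of the median detected gene, and its lowest tumours lay under the detection limit. The means of its odd-ranked and even-ranked probesets (24 in all) correlated across tumours at r = 0.41, against 0.96 for the 14 probesets of Cd74 and 0.63 to 0.93 for the other members.

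**Figure D1:**
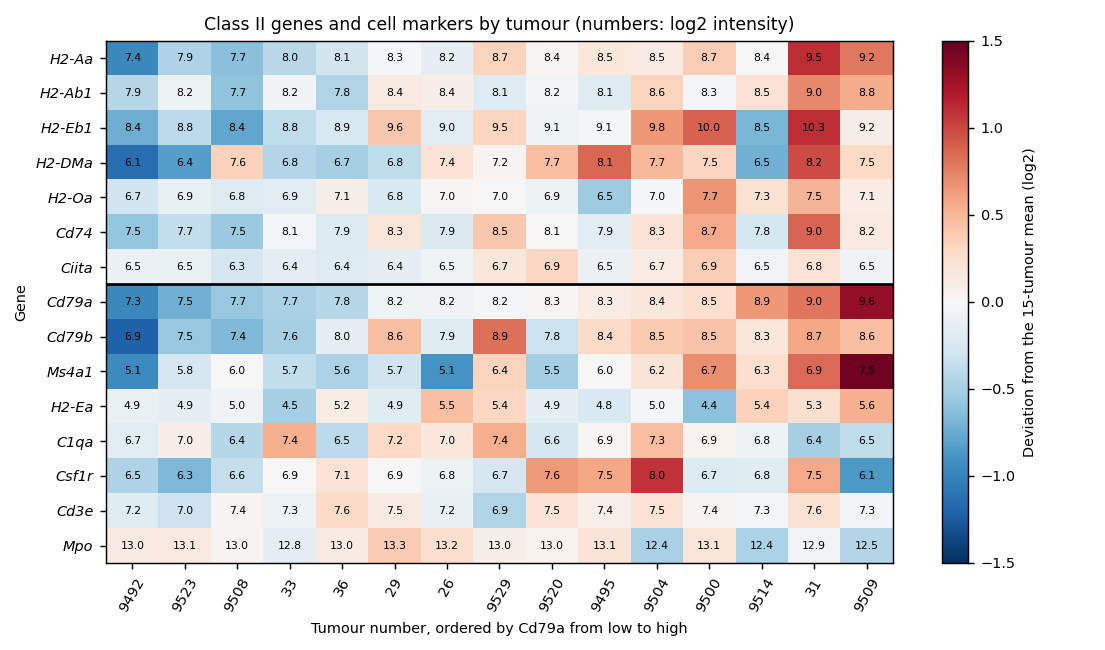
Levels of the 7 class II genes (above the black line) and of cell markers and the class II pseudogene H2-Ea (below) in each of 15 tumours. Tumours are ordered by Cd79a from left to right. Numbers are log2 intensities and colours show the deviation from the gene's mean over the tumours; tumor_31 is among the 3 highest in all 7 class II genes, while tumor_9514, rank 3 in Cd79a, is low in H2-Eb1 (8.48) and H2-DMa (6.49).

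The comparison with Cd79a asked whether the class II signal followed B cells. Cd79a ranged from 7.27 in tumor_9492 through a median of 8.20 to 9.55 in tumor_9509, with tumor_31 at 9.04 and tumor_9514 at 8.89. In whole spleen, fewer cells of a type and less RNA per cell cannot be told apart. All 7 members had a positive r with Cd79a (0.40 to 0.89), where the median detected gene had r = -0.18 and the median member 0.55. By Pearson's r with a two-sided permutation test, adjusted over 9778 genes with the Benjamini-Hochberg method, 1 of 7 members passed at 0.05, against 0.0205% of all genes tested (2 genes, both positive: H2-Aa and Iglc2, an immunoglobulin light chain gene). At an unadjusted p under 0.05, 6 of 7 members were positive against 3.08% of all genes, and by Spearman's rho 7 of 7 against 2.73%.

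H2-Aa had the highest r but 1 of the 9778 genes. Its r with Cd79a was 0.89 (permutation p = 1e-05, adjusted p = 0.0489; 1e-05 is the smallest p that the permutations can give), and rho was 0.91 (permutation p = 1e-05, adjusted p = 0.0652). H2-Aa rose by 0.78 ± 0.11 log2 per log2 of Cd79a (SE, limma adjusted p = 0.00953), the 1 member of 7 past the limma threshold, against 0.0511% of all genes with a positive slope and 0.0614% in either direction. The 2 tumours farthest from the median of Cd79a were tumor_9509 and tumor_9492, and r was 0.84 without them. Within the 10 tumours with a 4-digit number, where 0 genes passed the permutation test after adjustment and 208 (2.13%) were positive at an unadjusted p under 0.05, it was 0.89, and without tumor_9509 and tumor_9514 it was 0.96. The adjusted call by permutation was lost whichever 1 tumour was left out (adjusted p = 0.0652 to 0.186, r = 0.86 to 0.93). Over all alternatives the adjusted p of H2-Aa lay between 0.00953 and 0.196.

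The other chains were positive but did not pass after adjustment. H2-Ab1 had r = 0.82 (permutation p = 0.00021, adjusted p = 0.128) and rho = 0.76 (permutation p = 0.0016, adjusted p = 0.364), rank 10 of all genes. Its limma slope was 0.49 ± 0.10 (adjusted p = 0.0716), and r was 0.75 without the 2 farthest tumours, 0.83 in the 4-digit tumours and 0.77 without tumor_9509 and tumor_9514. After quantile normalization H2-Ab1 passed as well (permutation, adjusted p = 0.0257), making 2 of 7 members against 0.317% of all genes. H2-Eb1 had r = 0.53 (permutation p = 0.0434, adjusted p = 0.283) and rho = 0.66 (permutation p = 0.00935, adjusted p = 0.456), with a limma slope of 0.50 ± 0.20 (adjusted p = 0.198). Its r was 0.56 without the 2 farthest tumours and 0.41 in the 4-digit tumours, but 0.90 without tumor_9509 and tumor_9514. Of the 3 chains, H2-Eb1 was the one whose r moved most with the arrays used.

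H2-DMa had r = 0.55 (permutation p = 0.0357, adjusted p = 0.269) and rho = 0.575 (permutation p = 0.0279, adjusted p = 0.519), with a limma slope of 0.57 ± 0.22 (adjusted p = 0.180). Its r was 0.45 without the 2 farthest tumours, 0.42 in the 4-digit tumours and 0.84 without tumor_9509 and tumor_9514. H2-Oa had r = 0.52 (permutation p = 0.0473, adjusted p = 0.290) and rho = 0.67 (permutation p = 0.00828, adjusted p = 0.442), with a limma slope of 0.26 ± 0.12 (adjusted p = 0.240). In the same order its r was 0.53, 0.45 and 0.55, so r moved for H2-DMa and hardly at all for H2-Oa when the arrays that stood apart were left out.

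Cd74 had r = 0.61 (permutation p = 0.0143, adjusted p = 0.216) and rho = 0.65 (permutation p = 0.00946, adjusted p = 0.456), with a limma slope of 0.41 ± 0.14 (adjusted p = 0.138). Without the 2 farthest tumours its r was 0.63, in the 4-digit tumours 0.56 and without tumor_9509 and tumor_9514 0.87. Ciita had the lowest r, 0.40 (permutation p = 0.133, adjusted p = 0.418), with rho = 0.68 (permutation p = 0.00665, adjusted p = 0.432) and a limma slope of 0.13 ± 0.09 (adjusted p = 0.464). Its r was 0.58, 0.25 and 0.66 under the same 3 choices. The leave-out of tumor_9509 and tumor_9514 was chosen after the data were seen, and under it 0 genes passed the permutation test after adjustment, while 490 genes (5.01%) were positive at an unadjusted p under 0.05.

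**Figure D2:**
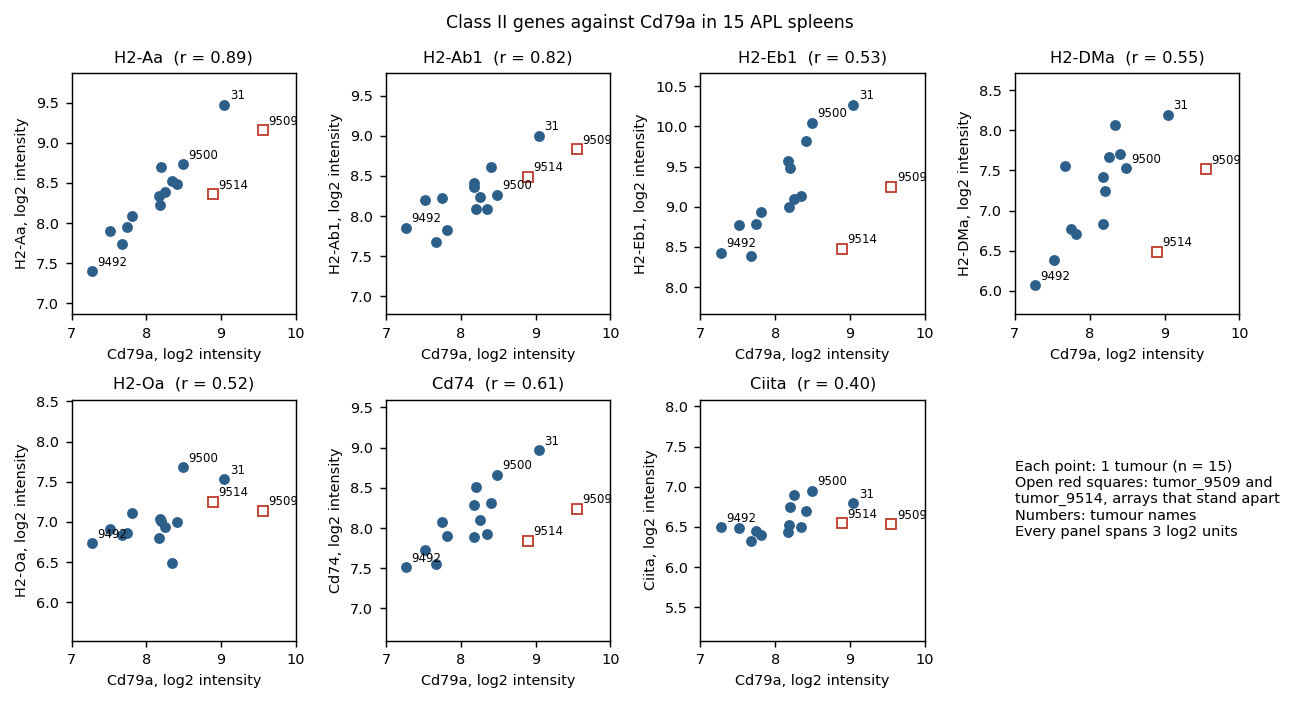
Level of each class II gene (vertical axis, log2 intensity) against Cd79a (horizontal axis, log2 intensity) with 1 point per tumour (n = 15) and every panel spanning the same number of log2 units. Open red squares are tumor_9509 and tumor_9514, which lie below the run of the other tumours in H2-Eb1, H2-DMa and Cd74; H2-Aa has r = 0.89 and Ciita r = 0.40.

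In those 2 arrays most members lay below the line fitted to all 15 tumours. All 7 members were below it in tumor_9509 and 6 of 7 in tumor_9514, where H2-DMa was at -1.09 log2 from the line. tumor_9508 also had 6 of 7 below, and tumor_9495, tumor_9492, tumor_36 and tumor_33 had 5 of 7. All 7 members were above it in tumor_31, by 0.11 to 0.70 log2. tumor_9500 and tumor_9529 had 6 of 7 above. Of the other tumours only tumor_31, at 9.04, had a Cd79a level near those of the 2 arrays (9.55 and 8.89). The line is fitted to the same points, so these positions describe the tumours and test nothing, and the part of the lower array medians of tumor_9509 and tumor_9514 in them was not tested.

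The pattern was also set against Cd79b, the other signalling chain of the B cell receptor, which itself correlated with Cd79a at r = 0.74 (permutation p = 0.00122, adjusted p = 0.183; rho = 0.72, permutation p = 0.00307, adjusted p = 0.432), and at 0.83 without tumor_9509 and tumor_9514. H2-Aa ranked 2 of 9778 genes again, with r = 0.86 (permutation p = 4e-05, adjusted p = 0.196; rho = 0.86, permutation p = 9e-05, adjusted p = 0.196). Cd74 ranked 6 with r = 0.80 (permutation p = 0.00034, adjusted p = 0.369; rho = 0.86) and H2-Eb1 ranked 14 with r = 0.77 (permutation p = 0.00076, adjusted p = 0.443; rho = 0.86). H2-Ab1, at 0.60, was at rank 121. The remaining members had r between 0.42 and 0.54, and 0 genes passed after adjustment in the permutation test (253 positive at an unadjusted p under 0.05, 2.59%). The order of the members after H2-Aa thus differed with the B cell gene used.

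The same test was run with markers of other cells. With the T cell gene Cd3e the members had r = 0.10 to 0.43, with the macrophage gene C1qa -0.24 to 0.14, and with Batf3, a transcription factor of cross-presenting dendritic cells, -0.26 to 0.10. With the monocyte receptor gene Csf1r they had -0.04 to 0.53, the highest for H2-DMa (permutation p = 0.0417, adjusted p = 0.602; rho = 0.55, permutation p = 0.0375, adjusted p = 0.700). With Mpo they ran from -0.49 for H2-Ab1 to 0.02 for H2-Eb1. No member passed after adjustment with any of these 5 markers, by permutation, while Mpo had 470 positive (4.81%) and 23 negative (0.235%) genes and the other 4 had 0 in either direction. At an unadjusted p under 0.05 the positive share of all genes was 2.53% for Cd3e, 4% for Batf3, 3.76% for C1qa, 6.3% for Csf1r and 25.3% for Mpo, and the negative share was 2.73%, 6.41%, 2.95%, 1.77% and 3.15%. The pair of H2-DMa with Csf1r was the 1 of 35 member values past that level by r, so the count is near its background. Within the 10 tumours with a 4-digit number the values were 0.04 to 0.59 with Cd3e, -0.19 to 0.27 with Batf3, -0.23 to 0.55 with Csf1r and -0.76 to 0.10 with Mpo. With C1qa they were 0.04 to 0.57 there, the highest for H2-Eb1, whose r with Cd79a in those tumours was 0.41. Without tumor_9509 and tumor_9514 the members had r = 0.10 to 0.45 with Cd3e, -0.32 to 0.01 with Batf3, -0.20 to 0.16 with C1qa, 0.04 to 0.66 with Csf1r and -0.30 to -0.10 with Mpo. Cd3e had r = 0.28 with Cd79a, where the 9 detected genes of the T cell list ran from -0.14 to 0.74. No other gene of that list was set against the members.

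Batf3 does not speak for the whole dendritic cell list. Of its 11 measured genes, 8 were under the detection limit, among them Itgax, the usual marker (6.35), which gave r = 0.15 to 0.42 with the members. Clec9a, a receptor of cross-presenting dendritic cells, gave 0.44 to 0.81 at a mean of 5.65. Its r with Cd79a was 0.49, or 0.72 without tumor_9509 and tumor_9514. Kmo gave 0.36 to 0.64 and Dpp4 0.19 to 0.68. The median r with the members ran from -0.06 for Batf3 to 0.65 for Clec9a and was positive for 9 of the 11 genes. These values were added after the data were seen and carry no test, and a signal under the limit may hold little of the gene.

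With a second marker as a term beside Cd79a in limma, the H2-Aa slope stayed between 0.76 and 0.80. It was 0.76 ± 0.12 with Itgax (adjusted p = 0.0421), 0.80 ± 0.12 with C1qa (adjusted p = 0.0188) and 0.78 ± 0.12 with Cd3e (adjusted p = 0.0316). H2-Aa was the 1 member that passed in each of these limma fits, in which 0.0409%, 0.0818% and 0.0511% of all genes passed with a positive slope. With Itgax, C1qa and Cd3e in turn, the slope of H2-Eb1 was 0.43, 0.56 and 0.45 (0.50 with Cd79a alone). That of Cd74 was 0.36, 0.45 and 0.40 (0.41 alone), and that of H2-DMa 0.59, 0.56 and 0.48 (0.57). H2-Ab1 had 0.47, 0.51 and 0.49 (0.49), H2-Oa 0.27, 0.25 and 0.25 (0.26), and Ciita 0.12, 0.14 and 0.13 (0.13). Itgax was under the detection limit, and Cd3e had r = 0.28 with Cd79a. Tumours with 2-digit and 4-digit numbers, the only labels that divide the arrays, differed in the members by -0.22 (H2-Eb1) to 0.10 log2 (Ciita, 4-digit minus 2-digit, n = 10 and 5, limma adjusted p = 1.00). In that check 0 of 9779 genes passed (227 at an unadjusted p under 0.05, 2.32%), and with number of digits as a term the H2-Aa slope was 0.79 ± 0.11 (limma adjusted p = 0.0132, with 0.0307% of all genes past the threshold with a positive slope). Relations within the 5 tumours with a 2-digit number were not computed, since they are too few.

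The other cell markers were set against Cd79a list by list, where 3.08% of all genes were positive and 13.9% negative at an unadjusted p under 0.05. The median r of all detected genes went from -0.18 to 0.04 without tumor_9509 and tumor_9514, so each list's median is given both ways. Of the B cell list, 16 of 20 genes had probesets and 11 were detected, and all 10 tested against Cd79a had a positive r, with a median of 0.51, or 0.60 without those arrays. At an unadjusted p under 0.05, 5 of the 10 were positive and 0 passed after adjustment by permutation. They included Vpreb3 (0.78, and 0.65 without those arrays), Cd79b (0.74 and 0.83) and Fcrla (0.58 and 0.74). The rest were the B cell linker Blnk (0.58 and 0.83) and Btla (0.56 and 0.56). Ms4a1, which encodes CD20, was not detected in the mean (6.03 ± 0.66), although it reached 7.49 in tumor_9509 and had r = 0.81 with Cd79a, or 0.70 without those arrays. The summed log2 level of the measured B cell markers ran from 102 in tumor_9492 to 120.2 in tumor_31, which were lowest in 3 and highest in 5 of the 7 class II genes. Cd37, named with Cd79a for its mean, was at 9.44 ± 0.35.

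Of the 9 detected T cell markers, 3 were positive at an unadjusted p under 0.05, where 3.08% of all genes were. They were Cd3d (0.74, and 0.67 without tumor_9509 and tumor_9514), Cd2 (0.72 and 0.87) and Cd3g (0.68 and 0.59), and 0 passed after adjustment by permutation. The median r of the T cell list was 0.29, or 0.56 without those arrays. Their part in the relation of the members with Cd79a was not tested beyond the fit with Cd3e above. The summed T cell level ran from 69.1 in tumor_9523 to 81.1 in tumor_31, and the 2 genes named for their mean were Thy1 (8.91 ± 1.23) and Cd2 (7.84 ± 0.54). Of the plasma cell list 3 of 8 genes were detected and 2 were positive at that level, against the same 3.08%. They were the joining chain Jchain (0.86, and 0.80 without those arrays) and Mzb1 (0.66 and 0.36). The list's median was 0.66 and 0.51. Jchain stood at 7.87 ± 0.64, and Xbp1 (8.79 ± 0.31) had r = -0.13 with all tumours and 0.51 without those arrays. The summed plasma cell level ran from 52.2 in tumor_9492 to 57.3 in tumor_31.

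The other producers of class II were read by their own lists. Of 11 measured dendritic cell markers 3 were detected (Batf3 at 6.87 ± 0.28, Ccr7 at 7.29 ± 0.26 and Cd209a), with a median r of 0.06 (0.07 without tumor_9509 and tumor_9514), and 0 were positive or negative with Cd79a at an unadjusted p under 0.05. Below the limit, with the r without those arrays second, were Kmo (r = 0.72 and 0.64 with Cd79a), Dpp4 (0.56 and 0.59), Xcr1 (0.51 and 0.012) and Clec9a (0.49 and 0.72). The others were Zbtb46 (0.39 and 0.20), Itgax (0.37 and 0.47), Siglech (0.12 and -0.0066) and Flt3 (0.05 and 0.25). Over all 11 the median r was 0.37, or 0.20 without those arrays. The summed level of the 11 ran from 65.1 in tumor_9523 to 70.8 in tumor_9504. Of 12 macrophage markers 7 were detected, with Vcam1 (9.71 ± 0.89) and Hmox1 (7.93 ± 0.36) named for their means, a median r of -0.16 (0.08 without those arrays) and a summed level from 73.9 in tumor_9509 to 87.7 in tumor_29. The 7 monocyte markers, with F13a1 (9.34 ± 0.72) and Ms4a6c (8.98 ± 1.23) named for their means, had a median r of -0.05 (-0.17 without those arrays) and a summed level from 49.3 in tumor_9529 to 56.7 in tumor_36. Of these 7, 2 had a positive r with all tumours, Csf1r at 0.11 (0.66 without those arrays) and Cx3cr1 at 0.27 (0.46). Neither list had a gene past an unadjusted p of 0.05. The 7 promyelocyte markers had a median r of -0.52 (-0.17 without those arrays). At an unadjusted p under 0.05, 4 were negative and 1 positive, where 13.9% and 3.08% of all genes were. The negative ones were Ctsg (-0.78, and -0.66 without those arrays), Myb (-0.70 and -0.47), Mpo (-0.54 and -0.17) and Ms4a3 (-0.52 and -0.30). The positive one was Cebpe (0.53 and 0.49). The summed promyelocyte level ran from 70.4 in tumor_9509 to 74.7 in tumor_26.

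Seen by tumour, tumor_31 was highest in H2-Aa, H2-Ab1, H2-Eb1, H2-DMa and Cd74, rank 2 in H2-Oa and rank 3 in Ciita. tumor_9500 was highest in H2-Oa and Ciita and rank 2 in H2-Eb1 and Cd74. tumor_9509, highest in Cd79a, was rank 2 in H2-Aa and H2-Ab1 but ranked 4 to 7 in the other members, and tumor_9514, rank 3 in Cd79a, ranked 13 in H2-Eb1 and H2-DMa. Of the 68 member probesets, 52 were above their own 15-tumour median in tumor_31 and in tumor_9504, 50 in tumor_9500 and 48 in tumor_9529, against 10 in tumor_9508, 14 in tumor_9492 and 15 in tumor_9523 and tumor_36. Over all probesets with 1 symbol the share above the median was 50.2% in tumor_31, 44% in tumor_9504, 49.4% in tumor_9500 and 47.1% in tumor_9529, and 44.1%, 52.3%, 49.9% and 46.1% in the 4 low tumours, against member shares of 70.6% to 76.5% and 14.7% to 22.1%. tumor_31 also had the highest array median (129) and the highest summed level of the promoter factor, processing, interferon gamma and class I lists, and the part of this in its class II levels was not tested. tumor_9508 was the exception for H2-DMa, in which it ranked 5 at 7.56.

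The probesets of a gene did not all move alike. Of the 68 member probesets, 30 (44.1%) had an r with Cd79a over 0.5, against 3.1% of 208391 probesets tested. That held for 5 of 7 in H2-Aa, 5 of 5 in H2-Ab1, 5 of 7 in H2-Eb1, 2 of 6 in H2-DMa, 2 of 5 in H2-Oa, 9 of 14 in Cd74 and 2 of 24 in Ciita. In limma over all probesets, a fit added after the data were seen, 4 member probesets had a positive slope past an adjusted p of 0.05, against 0.00528% of all probesets (11 positive). They were probesets 5489966 and 4353190 of H2-Aa, with slopes of 1.07 ± 0.14 and 1.23 ± 0.16, 5063400 of H2-Ab1 at 1.01 ± 0.13 and 4316366 of H2-Eb1 at 1.01 ± 0.14 (SE, limma). Probesets of 1 gene share their transcript and are not replicates.

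The slopes of those 4 probesets were above those of their genes' medians, which were 0.78, 0.49 and 0.50. The H2-Aa probeset 5489966 ran from 9.22 in tumor_9492 to 12.15 in tumor_9509, whereas probeset 5185512 of the same gene stayed between 7.75 and 8.63 and had r = -0.24. In H2-Eb1, probeset 4316366 ran from 8.95 to 11.57 and probeset 4926777 from 7.79 to 8.62. In H2-DMa, probeset 4856726 had a mean of 10.29 and r = -0.31, and was lowest (9.88) in tumor_31, where the gene's median was highest. Among the 14 probesets of Cd74, 4730989 ran from 9.89 in tumor_9492 to 11.67 in tumor_31 (r = 0.81), and 4595926 from 9.62 to 10.28 (r = 0.53). Probesets 4489759 (5.49 to 8.86, r = 0.29) and 5371783 (2.50 to 7.38, r = 0.04) of Cd74 varied more but followed Cd79a less. The gene medians therefore mix probesets that follow Cd79a with others that hardly vary or that vary without following it. A fold range of a median is not that of its most variable probeset.

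**Figure D3:**
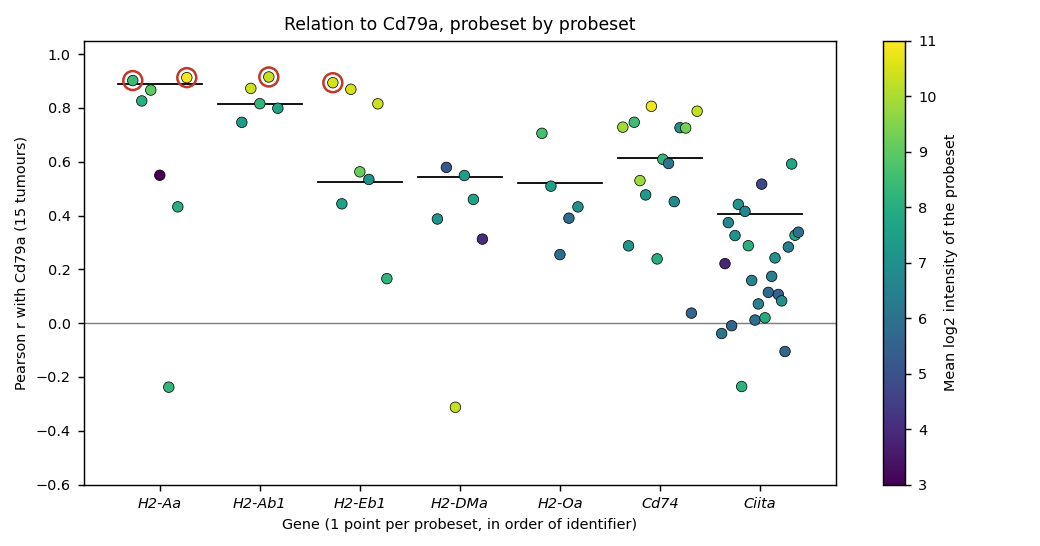
Pearson r with Cd79a over 15 tumours for each of the 68 probesets, grouped by gene, with colour giving the probeset's mean log2 intensity, black bars the r of the gene's median level and red circles the 4 probesets past the limma threshold. All 5 H2-Ab1 probesets lie above 0.5, whereas 2 of the 24 Ciita probesets do.

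The members also varied together. All 21 pairs had a positive r, with a median of 0.61, and 16 of 21 (76.2%) were over 0.5 against 11.8% of all pairs of detected genes, whose median was 0.08. The closest pair was H2-Eb1 with Cd74 (0.94), followed by H2-Aa with Cd74 (0.86), and the weakest was H2-DMa with H2-Oa (0.20). Among members, Ciita was closest to Cd74 (0.71) and H2-Eb1 (0.68). H2-Eb1 and Cd74 were thus nearer to each other than either was to Cd79a, and their r was 0.95 without tumor_9509 and tumor_9514. The pairs share arrays and, in part, these 2 arrays, so the values are a description.

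**Figure D4:**
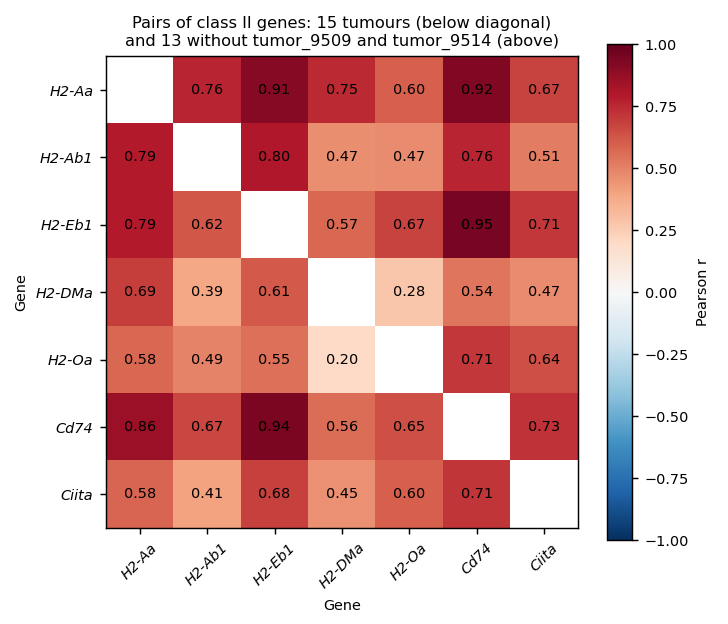
Pearson r between levels of each pair of class II genes over 15 tumours (below the diagonal) and over 13 tumours without tumor_9509 and tumor_9514 (above it). Values run from 0.20 (H2-DMa with H2-Oa) to 0.94 (H2-Eb1 with Cd74) below the diagonal.

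The factors that Ciita joins at class II promoters were read as a list. All 7 (Rfx5, Rfxap, Rfxank, Creb1, Nfya, Nfyb and Nfyc) were detected, and all 7 had a negative r with Cd79a, with a median of -0.36 against -0.18 for all genes. Without tumor_9509 and tumor_9514 the median was 0.0043 against 0.04. At an unadjusted p under 0.05, 1 of 7 was negative, Rfxap at -0.67 (permutation p = 0.00651, adjusted p = 0.199; -0.24 without those arrays), where 13.9% of all genes were negative, and 0 passed after adjustment by permutation. Rfxap (8.35 ± 0.50) and Creb1 (9.22 ± 0.43) had the largest SDs of the list, and both were lowest in tumor_9509, at 6.92 and 8.25. Of the 7 measured genes of the interferon gamma route to Ciita, which induces class II outside B cells, 6 were detected and 0 passed even unadjusted, with a median r of -0.07, or 0.25 without those arrays. Jak2 (7.03 ± 0.52) and Ifngr1 (10.07 ± 0.40) varied most among the detected.

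The next list held genes that cut the invariant chain, process peptides or turn class II over. Of 10 measured, 8 were detected, and 2 were positive with Cd79a at an unadjusted p under 0.05, where 3.08% of all genes were, while 0 passed after adjustment by permutation. These were cathepsin S, Ctss (0.54, permutation p = 0.0380, adjusted p = 0.273; 0.79 without tumor_9509 and tumor_9514), the protease that finishes invariant chain removal in B cells and dendritic cells, and Cd83 (0.54, permutation p = 0.0397, adjusted p = 0.277; 0.49 without them), which stabilises surface class II. Cd83 (6.48 ± 0.59) and the thiol reductase gene Ifi30 (7.78 ± 0.53) had the largest SDs among the detected, and Ifi30 had r = -0.17, or 0.42 without them. The median of the list was 0.21, or 0.43 without them.

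MHC class I presentation, which nearly all nucleated cells carry, was set beside class II. All 13 measured genes were detected, with a median r of 0.12. Without tumor_9509 and tumor_9514 that median was 0.53, against 0.04 for all genes and 0.84 for the median class II member. B2m, the class I light chain (12.98 ± 0.18), was the 1 gene positive at an unadjusted p under 0.05 (r = 0.70, permutation p = 0.00335, adjusted p = 0.183; 0.61 without them). The chaperones Canx (-0.72, or -0.38 without them) and Pdia3 (-0.54, or -0.13) were negative, 2 of 13 genes, which is near the 13.9% of all genes. Calr, the other gene named for its mean, was at 11.58 ± 0.29. None passed after adjustment by permutation. The difference between the class I and class II lists was not tested.

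The genes whose level over the 15 tumours was most like the mean of the standardised members were, among 9455 detected genes with at least 3 probesets, Slfn2 (r = 0.90), Igkv3-4 (0.86), Trim12a (0.85), Cd300lf (0.83), Ighm (0.83), Zfp36 (0.82), Sfxn5 (0.82), Blnk (0.81), Mapk13 (0.80) and Fgd2 (0.80). Igkv3-4 and Ighm encode a kappa variable segment and the IgM heavy chain, and Blnk the B cell linker. Of the 10, only Blnk was on the B cell list used here. Cd79b was 19th and Cd79a 28th on that scale, with r = 0.78 and 0.76. The genes with at least 3 probesets and the highest r with Cd79a itself were H2-Aa, then Jchain (0.86), Sdc4 (0.85), Zfp36 (0.83), Ly6d (0.82), Ormdl1 (0.82), Zfp119a (0.82), H2-Ab1 (0.82), Cd180 (0.81) and Cd300a (0.80). Class II genes thus held 2 of these 10 places. H2-Aa apart, none of the 10 passed after adjustment by permutation.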

How the data were processed

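Total RNA from spleen was amplified from 20 ng and hybridised to exon arrays, 15 of which were used here, per the labels' protocols. Each array's file column, as deposited by the authors, holds an intensity for every probeset. The submitters' processing notes name RMA (background correction, normalization between arrays and summary of probes), with no version, and the build mm9; other steps are not given in the sources used here. The scale was settled as linear from the values, and log2 was taken here. Scanner files were not used here.

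The platform annotation gave 1 symbol to 208397 of 229581 probesets, which were used, several to 3965 and none to 17219. A gene table of GRCm38.p6, used for names only, held 14132 of the 16299 symbols as they stood and updated 2102, and 65 kept their old form. Gene values are medians over probesets, of which a gene had 11 in the median. Correlations used two-sided permutation tests with 100000 resamples, slopes used limma (lmFit, eBayes), and p-values were adjusted with the Benjamini-Hochberg method over all detected genes. The digits of the tumour number were compared as a possible batch. Members, lists and tests were chosen with earlier results of these data known. Named were all members, per list of class II factors the 2 genes with the largest SD, per marker list the 2 with the highest mean, the 10 genes most like the members and the 10 most like Cd79a; others were chosen after their values were seen. Itgax was not detected, so Batf3, the first detected gene of its list, was used in the dendritic cell test. Alternatives were other summaries, filters, normalizations, tests, B cell genes, terms and tumours left out; 1 further B cell gene is not reported here. The steps were tested on simulated data. Python 3.11.15 with pandas 2.3.3, numpy 2.4.6 and matplotlib 3.10.9, and limma 3.58.1 under R 4.3.3, were used.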

Additional observations from a re-analysis of the deposited data

How the results depend on the processing

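All members kept a positive r with Cd79a under every alternative in which they were tested: r was 0.44 to 0.90 with the mean over probesets, 0.49 to 0.87 with probesets above the 25th percentile (5 members; H2-Oa and Ciita fell under the limit), 0.52 to 0.90 with centred arrays, 0.42 to 0.93 after quantile normalization, 0.25 to 0.89 in the 10 tumours with a 4-digit number and 0.55 to 0.96 without tumor_9509 and tumor_9514. The number of genes called, 2 with all tumours, was 0 with the mean over probesets, without a filter, in the 4-digit tumours, without tumor_9509 and tumor_9514, by rho and with Cd79b. It was 4 with the 60th percentile filter, 12 with probesets above the 25th percentile, 6 with centred arrays, 56 after quantile normalization, 6 by limma, and 4, 9 and 5 in limma with Itgax, C1qa and Cd3e as terms. The split was 2 positive and 0 negative, against 31 and 25 after quantile normalization, 3 and 3 with centred arrays and 8 and 4 with probesets above the 25th percentile. Members called went from 1 to 0 where 0 genes passed, and to 2 after quantile normalization (H2-Ab1, adjusted p = 0.0257). With 1 tumour left out in turn, 0 to 2 genes and 0 to 0 members were called. Without tumor_9495, 2 genes passed but 0 members did, with H2-Aa at a permutation adjusted p of 0.117. With 100000 permutations a gene at the smallest p that stands alone has an adjusted p of 0.0978. With 1 tumour left out, the permutation adjusted p of H2-Aa was 0.0652 to 0.186, on both sides of that value. The part of the number of permutations in these losses was not tested. H2-Ab1 had a mean of 8.80 with the mean over probesets, and Ciita 6.83 with probesets above the 25th percentile. The difference of H2-Aa between 4-digit and 2-digit tumours, -0.08, turned to 0.0049 with probesets above the 25th percentile and 0.028 after quantile normalization; the cause was not tested. No paired analysis was possible because all tumours form 1 group.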

Other observations

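Limma over genes found 6 that passed with Cd79a. Besides H2-Aa these were Iglc2 (slope 1.20 ± 0.15, SE), Jchain (0.91 ± 0.14), Igkv6-25 (0.72 ± 0.12) and Zfp36 (0.84 ± 0.15), with Frrs1 falling (-0.50 ± 0.08). Iglc2 and Igkv6-25 are immunoglobulin light chain genes, each read here by 1 probeset, and Jchain joins the units of secreted IgM and IgA. Zfp36 encodes an mRNA decay factor.

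Limma over probesets gave 8 more outside the class II genes, a fit added after the data were seen. Those with a positive slope were probesets of Ly6a (1.60 ± 0.18), Iglc2 (1.20 ± 0.16), Igkv3-4 (1.37 ± 0.18), Ly6d (1.28 ± 0.18), Mzb1 (1.04 ± 0.14), Gtdc1 (0.68 ± 0.10) and Cpa6 (1.53 ± 0.22), and Map3k20 was negative (-0.99 ± 0.12). Ly6d marks B-lineage progenitors and Mzb1 is a chaperone for secreted immunoglobulin.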
